A study of Mus musculus with 6 samples.

Results

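Expression of the genes of cholesterol and fatty acid synthesis was followed in neurospheres, which are balls of cells grown in suspension from neural progenitors. The list held 38 genes, of which 34 had a named probe on the array and 32 were kept because a probe gave a signal above background, at a detection p below 0.05, on 3 or more of the 6 arrays. These 32 genes were part of 10167 named genes and 12755 features (named genes and unnamed probes) tested. Acat2, Hmgcs1, Fdft1 and Nr1h2 had no named probe and were not analysed here. The probe of Acaca, acetyl-CoA carboxylase, was above background on 0 arrays and that of Abca1, a cholesterol efflux pump, on 1, so neither was tested. Fasn and Cyp46a1 stood just inside the filter, each on 3 arrays.

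All spheres came from the subventricular zone of mice aged 18 months, were cultured with EGF and FGF and were taken after 14 days in vitro. Wip1-Tg mice, transgenic for the phosphatase Wip1, gave 1 array of secondary and 2 arrays of primary spheres. Wild-type (wt) mice gave 2 arrays of secondary spheres and 1 of primary spheres. All 6 arrays were on 1 Illumina mouse beadchip. The labels give neither the promoter nor the cell type that drives the transgene. They also do not say which arrays stem from different mice or dishes, and the spread that p-values rest on may therefore be technical.

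Cholesterol is built from acetyl-CoA through mevalonate, farnesyl diphosphate, squalene and lanosterol, and the brain makes its own because the blood-brain barrier holds back lipoproteins. The transcription factors SREBP, encoded by Srebf1 and Srebf2, switch on both this route and fatty acid synthesis: Scap carries them out of the endoplasmic reticulum when sterols are low, and the Insig proteins hold Scap back when sterols are high. Liver X receptors sense oxysterols and switch on export genes, and in brain astrocytes hand cholesterol to other cells on Apoe particles.

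SREBP works at promoters together with NF-Y and Sp1, so the promoters of the kept genes were read for the letters of their sites. RefSeq promoters (GRCm38.p6, 250 bases before to 50 after the most upstream start of each gene) were at hand for 25 of the 32 genes, 13 of them for sterol synthesis. Both strands were searched. The NF-Y box CCAAT lay in 12 of the 13 sterol synthesis promoters (92.3%), against 38% of all 27025 promoters, and the Sp1 box GGGCGG likewise in 12 of 13, against 35.9% of all. The E box CACGTG lay in 2 of the 13, against 7.24% of all. The sterol regulatory element, searched as TCACNCCAC, lay in 0 of the 25 windows, against 1.22% of all promoters, which says only that these letters are not in these windows. In the 4 promoters printed here no matches overlap one another, and a match describes sequence, not a bound site. The 4 promoters below belong to the sterol genes with the largest passage differences, Dhcr7 and Sc5d, and to the 2 Insig genes, and capitals mark the NF-Y, Sp1 and E boxes on either strand.
Dhcr7 (chr7:143822917-143823216, plus strand): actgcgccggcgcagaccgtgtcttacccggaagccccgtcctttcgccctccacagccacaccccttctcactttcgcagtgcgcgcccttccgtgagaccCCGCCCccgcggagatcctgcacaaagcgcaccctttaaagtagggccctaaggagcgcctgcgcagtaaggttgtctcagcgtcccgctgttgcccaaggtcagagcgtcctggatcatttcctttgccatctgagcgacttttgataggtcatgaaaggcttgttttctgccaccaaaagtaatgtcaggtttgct
Sc5d (chr9:42264251-42264550, minus strand): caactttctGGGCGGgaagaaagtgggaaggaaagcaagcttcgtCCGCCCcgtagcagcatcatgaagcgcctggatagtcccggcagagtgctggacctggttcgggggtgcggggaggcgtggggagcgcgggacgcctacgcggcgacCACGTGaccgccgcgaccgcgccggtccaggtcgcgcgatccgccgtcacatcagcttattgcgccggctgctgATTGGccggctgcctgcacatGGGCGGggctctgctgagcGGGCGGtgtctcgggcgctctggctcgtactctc
Insig1 (chr5:28071162-28071461, plus strand): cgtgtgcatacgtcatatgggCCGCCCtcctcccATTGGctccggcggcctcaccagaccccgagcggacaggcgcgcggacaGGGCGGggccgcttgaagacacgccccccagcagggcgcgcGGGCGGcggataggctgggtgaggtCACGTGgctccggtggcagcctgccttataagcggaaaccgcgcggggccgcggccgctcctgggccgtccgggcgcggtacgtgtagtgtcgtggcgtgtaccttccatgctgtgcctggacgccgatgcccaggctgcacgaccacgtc
Insig2 (chr1:121332540-121332839, minus strand): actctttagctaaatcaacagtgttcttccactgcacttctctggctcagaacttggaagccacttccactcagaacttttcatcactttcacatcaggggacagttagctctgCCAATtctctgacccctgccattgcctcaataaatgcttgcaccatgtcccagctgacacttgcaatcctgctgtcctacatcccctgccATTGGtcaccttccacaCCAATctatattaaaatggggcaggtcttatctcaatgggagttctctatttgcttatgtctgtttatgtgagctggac
Dhcr7 was the sterol synthesis gene without a CCAAT box in this window. Insig1 held the E box, the NF-Y box and 3 Sp1 boxes, while Insig2 held 3 NF-Y boxes and 0 of the others.

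Across the arrays, 38.9 to 41.3% of probes were above background. Arrays of different passage correlated at 0.9405 to 0.9542 across features, and replicates of 1 group at 0.9901 to 0.9907. Arrays of the same passage but different genotype correlated at 0.9802 to 0.9903. The progenitor markers Nes, Sox2, Vim, Fabp7, Sox9 and Hes5 were measured, 6 of 9 listed, while Msi1, Pax6 and Prom1 had no kept probe. Of 7 microglial markers 2 were kept, Aif1 and Csf1r, at a summed level of 72.08 to 88.98 on secondary and 59.62 to 76.73 on primary arrays. Both were dim, and Aif1 was above background on 0 primary arrays, so it passed the filter through the secondary arrays alone. Although the labels call the mice gender matched, all 4 probes of the X-inactivation transcript Xist were above background on the 3 secondary arrays and on Wip1-Tg primary 2, and 0 were on Wip1-Tg primary 1 and wt primary. In bulk samples, fewer cells of a type and less RNA per cell cannot be told apart.

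The first comparison asked how the lipid genes differed between secondary and primary spheres. In secondary spheres 9 of the 32 genes rose: the late sterol enzymes Sc5d, Dhcr7 and Nsdhl, the fatty acid genes Fads2, Fasn, Scd1 and Fads1, the regulator Srebf1 and the lipid carrier Apoe. One gene fell, Insig2, and 22 did not pass. Among the rises, Fasn entered the filter through the secondary arrays alone. These calls used limma with Benjamini-Hochberg adjustment over all features, a threshold of 0.05 and genotype in the model. With 10 of 32 called (31.2%), the share was near the 28.1% of all features called. By direction, 14.3% of all features rose and 13.8% fell. The secondary and primary arrays did not overlap for 15 of the 32 genes, against 46.8% of all features. Of the 32 differences 22 were above 0, against 54.1% of all features. The median difference over the 32 genes was 0.27 log2, against 0.04 over all features.

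**Figure D1:**
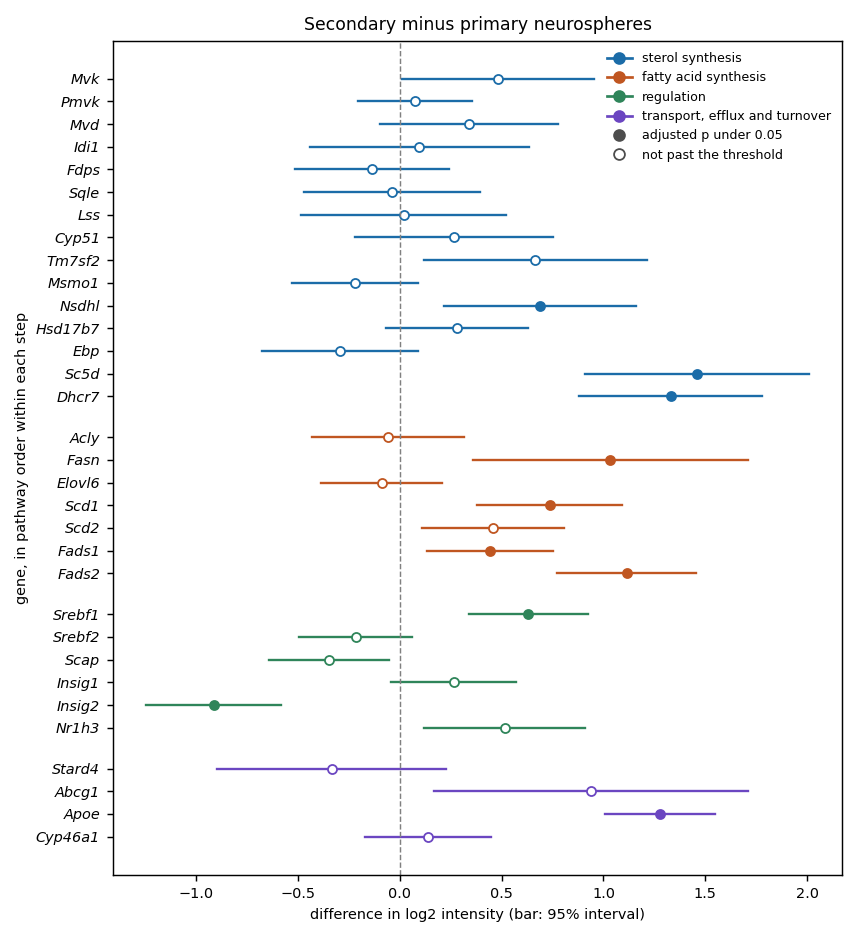
Secondary minus primary difference in log2 intensity for the 32 kept genes, grouped by step, with points for the fitted difference and bars for its 95% interval (3 arrays per passage). Filled points passed the threshold. Sc5d, Dhcr7, Apoe and Fads2 lie above 1 and Insig2 lies at -0.91. The Fasn point is a fitted value against background, where the secondary mean lies at least 0.77 above the primary level, a bound without sampling error.

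Within sterol synthesis, 3 of 15 genes rose, 0 fell and 12 did not pass, with a median of 0.27. The share called was 20%, below the 28.1% of all features. Split by place in the route, a division made after the values were seen, 0 of 7 genes up to lanosterol passed (differences of -0.14 to 0.48, median 0.07), and 3 of 8 after lanosterol rose (-0.29 to 1.46, median 0.47). Whether the stretches before and after lanosterol differ was not tested. Sc5d, the desaturase that makes the substrate of Dhcr7, had log2 intensities of 8.98 in Wip1-Tg secondary and 8.60 and 8.22 in wt secondary spheres, against 7.28 and 6.94 in Wip1-Tg primary and 7.36 in wt primary spheres. All secondary arrays were above all primary arrays. Sc5d rose 2.75-fold (1.46 log2, SE 0.23, 95% interval 0.91 to 2.01, limma adjusted p = 0.00622). Its difference was 1.87 among Wip1-Tg and 1.05 among wt spheres. Without the Wip1-Tg secondary array it was 1.05 and the limma adjusted p was 0.056.

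Dhcr7, the reductase that ends the Kandutsch-Russell branch in cholesterol, stood at 10.48 in Wip1-Tg secondary and 10.22 and 9.85 in wt secondary spheres, against 8.88 and 9.41 in Wip1-Tg primary and 8.71 in wt primary spheres. It rose 2.51-fold (1.33 log2, SE 0.188, 95% interval 0.88 to 1.78, limma adjusted p = 0.00437). The rise was alike in size among Wip1-Tg (1.34) and wt spheres (1.32), and the interaction was 0.02 (limma adjusted p = 0.992). Nsdhl, a sterol dehydrogenase that helps strip methyl groups from lanosterol, was at 10.01 in Wip1-Tg secondary and 10.34 and 9.94 in wt secondary spheres, against 9.69 and 9.64 in Wip1-Tg primary and 9.11 in wt primary spheres. It rose 1.61-fold (0.69 log2, SE 0.197, 95% interval 0.22 to 1.16, limma adjusted p = 0.0432), and its 4 kept probes gave 0.67 to 0.74. The wt primary array was the low one, and without it the difference was 0.34 (limma adjusted p = 0.302). The call also ended as either Wip1-Tg primary or either wt secondary array was left out.

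Nsdhl and Ebp, the sterol isomerase, lie on the X chromosome, and the Xist signal moved partly with passage. Nsdhl was at 9.64 on the primary array with Xist signal and at 9.69 and 9.11 on the 2 without. Ebp had log2 intensities of 8.95 in Wip1-Tg secondary and 8.56 and 8.43 in wt secondary spheres, against 8.89 and 9.30 in Wip1-Tg primary and 8.94 in wt primary spheres. Its difference was -0.29 (SE 0.16, limma adjusted p = 0.216), so it did not pass. The part of the X-linked difference between arrays in these values was not tested.

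The remaining sterol genes did not pass. Tm7sf2, a sterol reductase acting after lanosterol demethylation, was at 8.04 in Wip1-Tg secondary and 7.90 and 7.85 in wt secondary spheres, against 7.33 and 6.71 in Wip1-Tg primary and 7.56 in wt primary spheres (0.67, SE 0.228, limma adjusted p = 0.0713). Its secondary arrays did not overlap its primary arrays. Mvk, mevalonate kinase, differed by 0.48, Mvd, the decarboxylase that makes isopentenyl diphosphate, by 0.34 and Hsd17b7, a ketosteroid reductase of the demethylation complex, by 0.28. Cyp51, the lanosterol demethylase, differed by 0.27 and Idi1, the isomerase of the isoprenoid units, by 0.10. Differences lay closest to 0 for Pmvk (0.07), Lss, the lanosterol synthase (0.02), and Sqle, the squalene epoxidase (-0.04), whose second kept probe gave 0.17. The intervals still allowed changes of -0.47 to 0.39 for Sqle and -0.48 to 0.52 for Lss. Fdps, the farnesyl diphosphate synthase, stood at -0.14 and Msmo1, the methylsterol oxidase, at -0.22.

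In fatty acid synthesis 4 of 7 genes rose and 0 fell, with a median of 0.46, against 28.1% of all features called. One of the 4, Fasn, passed the filter through the secondary arrays alone, and under median scaling 2 of 7 rose (Fasn and Fads2). Fads2, the desaturase that opens polyunsaturated fatty acid synthesis, had log2 intensities of 11.25 in Wip1-Tg secondary and 11.66 and 11.51 in wt secondary spheres, against 10.38 and 10.33 in Wip1-Tg primary and 10.25 in wt primary spheres. It rose 2.16-fold (1.11 log2, SE 0.143, 95% interval 0.77 to 1.46, limma adjusted p = 0.00314), and its second probe gave 1.20. Fads1, the next desaturase of that route, was at 14.46 in Wip1-Tg secondary and 14.73 and 14.71 in wt secondary spheres, against 14.25 and 14.11 in Wip1-Tg primary and 14.12 in wt primary spheres. The Fads1 rise was smaller (0.44 log2, SE 0.129, limma adjusted p = 0.0453), and its groups lay close together. Leaving out any single array ended the call.

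Scd1, the stearoyl-CoA desaturase that makes oleate, had log2 intensities of 13.66 in Wip1-Tg secondary and 14.06 and 13.97 in wt secondary spheres, against 13.25 and 12.93 in Wip1-Tg primary and 13.11 in wt primary spheres. It rose 1.67-fold (0.74 log2, SE 0.149, 95% interval 0.38 to 1.09, limma adjusted p = 0.0145), a call that ended without the wt primary array. Scd2, its paralog and the main form of the brain, was at 11.86 in Wip1-Tg secondary and 11.57 and 11.80 in wt secondary spheres, against 11.14 and 11.34 in Wip1-Tg primary and 11.40 in wt primary spheres. Its groups did not overlap either, but the difference of 0.46 (SE 0.145, limma adjusted p = 0.0569) did not pass. It passed in 6 of 16 alternative settings.

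Fasn, the fatty acid synthase, was dim: its log2 intensity was 6.53 in Wip1-Tg secondary and 6.07 and 5.51 in wt secondary spheres, against 4.76 and 5.27 in Wip1-Tg primary and 5.24 in wt primary spheres. It was above background on all 3 secondary arrays and on 0 primary arrays, so it passed the filter through the group where it was high. The secondary mean was at least 1.70-fold above the primary level, a bound that carries no sampling error. For each primary array it took the higher of the probe's own value and the lowest value above background. The limma adjusted p of 0.0373 belongs to the fitted difference of 1.03 (95% interval 0.36 to 1.71), not to the bound. The call ended as wt secondary 1, Wip1-Tg secondary or either Wip1-Tg primary array was left out. Acly, the ATP-citrate lyase that supplies cytosolic acetyl-CoA, was at 12.22 to 12.68 on secondary and 12.56 to 12.73 on primary arrays (-0.06, limma adjusted p = 0.814). Elovl6, the elongase of long saturated fatty acids, differed by -0.09 (SE 0.124, 95% interval -0.38 to 0.21, limma adjusted p = 0.627).

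Among the regulators, 1 of 6 rose and 1 fell (33.3% called, against 28.1% of all features), with a median of 0.02. Srebf1, whose protein favours fatty acid genes, was at 9.14 in Wip1-Tg secondary and 8.99 and 8.98 in wt secondary spheres, against 8.33 and 8.52 in Wip1-Tg primary and 8.44 in wt primary spheres. It rose 1.55-fold (0.63 log2, SE 0.122, 95% interval 0.34 to 0.92, limma adjusted p = 0.0126). The call ended without the Wip1-Tg secondary array. Srebf2, whose protein favours sterol genes, was at 9.44 in Wip1-Tg secondary and 9.53 and 9.39 in wt secondary spheres, against 9.71 and 9.74 in Wip1-Tg primary and 9.60 in wt primary spheres. Here every secondary array was below every primary array, while the difference of -0.22 (SE 0.116, limma adjusted p = 0.209) did not pass. Scap, the escort of both proteins, was at 8.83 in Wip1-Tg secondary and 9.22 and 9.20 in wt secondary spheres, against 9.20 and 9.37 in Wip1-Tg primary and 9.44 in wt primary spheres (-0.35, SE 0.123, limma adjusted p = 0.0791), and its groups overlapped.

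**Figure D2:**
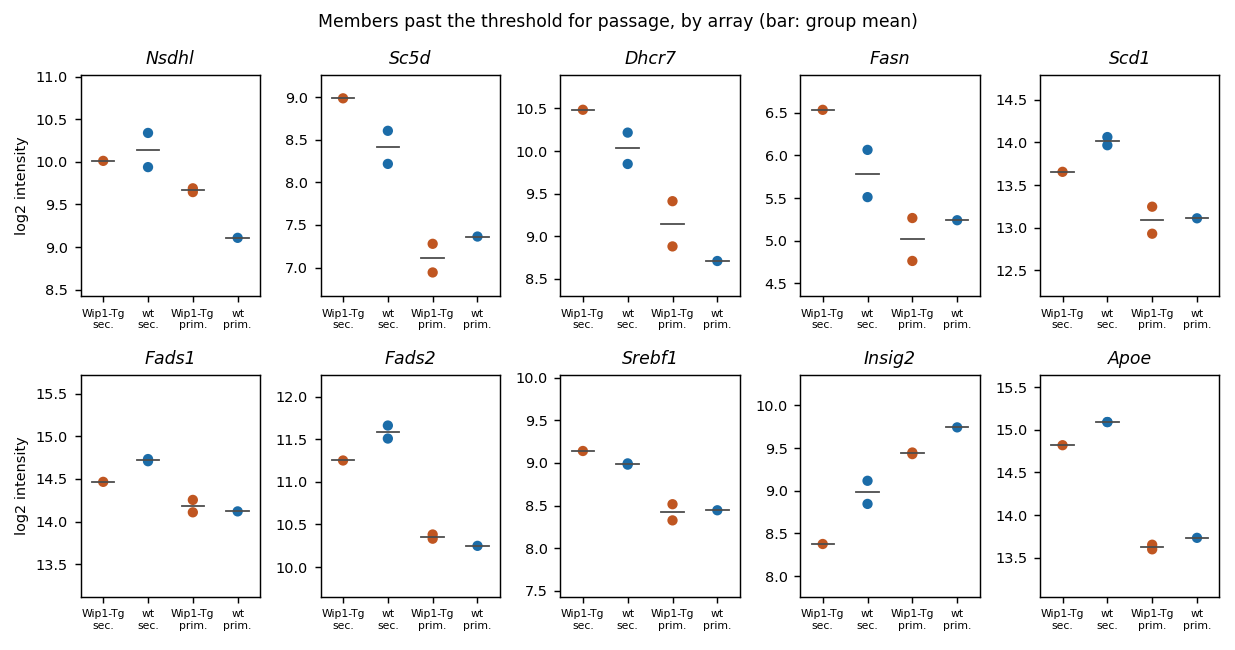
Normalised log2 intensity of the 10 genes that passed the threshold for passage, with 1 point per array and a bar for the mean of each group; each panel spans the same range of log2 units around its own middle. For Insig2 all 3 secondary arrays lie below all 3 primary arrays, and for the other 9 genes all 3 lie above.

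Insig2, 1 of the 2 anchors of Scap, had log2 intensities of 8.38 in Wip1-Tg secondary and 8.85 and 9.12 in wt secondary spheres, against 9.43 and 9.45 in Wip1-Tg primary and 9.74 in wt primary spheres. It fell 1.88-fold (-0.91 log2, SE 0.139, 95% interval -1.25 to -0.58, limma adjusted p = 0.00559). Without the Wip1-Tg secondary array the limma adjusted p was 0.0567. Its second kept probe gave -1.84, with 7.81 in Wip1-Tg secondary and 7.92 and 8.23 in wt secondary spheres, against 9.30 and 9.36 in Wip1-Tg primary and 10.23 in wt primary spheres. Both probes thus placed the secondary arrays below the primary ones, by different amounts. Insig1, the paralog that is itself an SREBP target, was at 10.53 in Wip1-Tg secondary and 10.44 and 10.19 in wt secondary spheres, against 10.24 and 10.16 in Wip1-Tg primary and 10.12 in wt primary spheres. Its difference of 0.27 (SE 0.128, limma adjusted p = 0.166) did not pass, and the other probes gave 0.17 and 0.08. The difference between the paralogs was not tested.

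**Figure D3:**
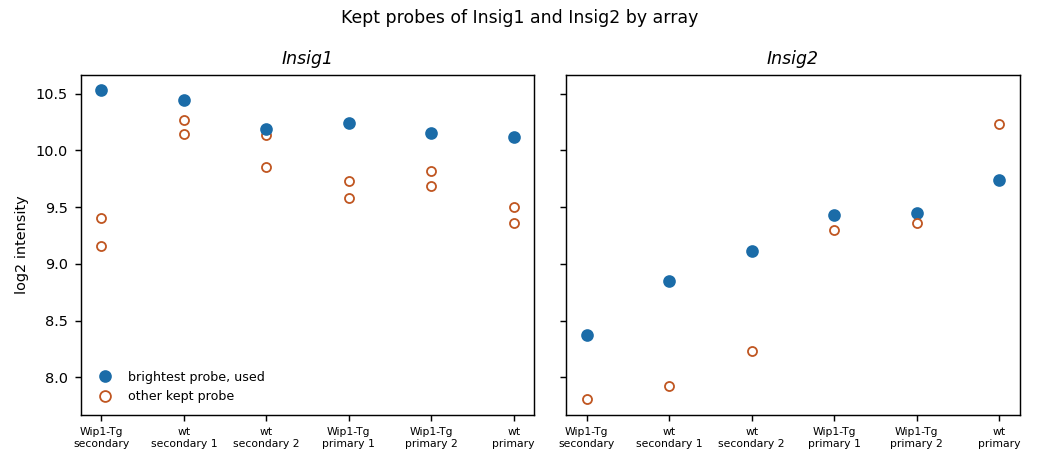
Log2 intensity of each kept probe of Insig1 (3 probes) and Insig2 (2 probes) on the 6 arrays, with the brightest probe, which stands for the gene, filled. Both Insig2 probes are lower on the secondary arrays, and the Insig1 probes part on the Wip1-Tg secondary array, where the brightest is at 10.53 and the others are at 9.41 and 9.15.

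Nr1h3, the liver X receptor alpha gene, was at 7.60 in Wip1-Tg secondary and 7.47 and 7.91 in wt secondary spheres, against 7.05 and 6.86 in Wip1-Tg primary and 7.31 in wt primary spheres. The groups were apart, and the difference of 0.51 (SE 0.165, limma adjusted p = 0.0587) did not pass. Of the 4 genes of transport, efflux and turnover, 1 rose and 0 fell (25% called, against 28.1% of all features). Apoe had log2 intensities of 14.82 in Wip1-Tg secondary and 15.09 in both wt secondary arrays, against 13.65 and 13.60 in Wip1-Tg primary and 13.73 in wt primary spheres. It rose 2.42-fold (1.28 log2, SE 0.113, 95% interval 1.01 to 1.55, limma adjusted p = 0.000978). This gap was far wider than the spread within either passage, and the call stood in 16 of 16 alternative settings.

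Abcg1, a sterol efflux pump, was at 6.84 in Wip1-Tg secondary and 5.49 and 6.07 in wt secondary spheres, against 5.52 and 5.04 in Wip1-Tg primary and 5.46 in wt primary spheres (0.94, SE 0.321, limma adjusted p = 0.0711). Its values overlapped between the passages, and it was above background on 5 arrays. Stard4, a cytosolic sterol carrier, was at 9.40 in Wip1-Tg secondary and 9.64 and 9.55 in wt secondary spheres, against 9.90 and 10.42 in Wip1-Tg primary and 9.51 in wt primary spheres (-0.33, SE 0.235, limma adjusted p = 0.325). Cyp46a1, the neuronal cholesterol hydroxylase, differed by 0.14 (SE 0.129, limma adjusted p = 0.451).

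Astrocyte markers moved with passage as well. Of 8 listed and measured, 5 rose, 1 fell (Gfap) and 2 did not pass (75% called, against 28.1% of all features). Among the rises, S100b was above background on 0 primary arrays, so it passed the filter through the secondary arrays alone. The summed linear intensity of the 8 was 98090 to 114000 on secondary and 58650 to 68530 on primary arrays. Of 4 measured proliferation markers 3 fell, against 13.8% of all features, with sums of 1386 to 2917 on secondary and 3480 to 5600 on primary arrays. Of 6 measured progenitor markers 1 rose (Hes5), 1 fell (Vim) and 4 did not pass (33.3% called, against 28.1% of all features). Their sums were 26730 to 28870 on secondary and 35350 to 40330 on primary arrays. The part of any of these marker groups in the lipid gene values was not tested. The count of 10 was 5 without the Wip1-Tg secondary array (Nsdhl, Dhcr7, Scd1, Fads2 and Apoe), where 10.7% of all features were called. Of the 4 arrays with Xist signal only Wip1-Tg primary 2 was primary. Passage with genotype in the model there compared that array with Wip1-Tg secondary alone, so no count of calls is given.

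Median scaling in place of quantile normalization moved the median of all features to -0.24 for passage, and the calls were then 5 rises (Sc5d, Dhcr7, Fasn, Fads2 and Apoe) and 3 falls (Insig2, Srebf2 and Scap), against 9 and 1 under quantile normalization. The sterol synthesis median for passage was then -0.04, and 8 of 15 genes were above the median of all features, against 0.27 and 10 of 15 under quantile normalization. Median scaling called 30.3% of all features, against 28.1% under quantile normalization. Of all features called, 16.2% rose under median scaling, against 51% under quantile normalization.

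Other lipid genes, a list of 46 that holds no member, had 36 measured, of which 8 rose and 5 fell with passage (36.1%, against 28.1% of all features). Cyp7b1, an oxysterol hydroxylase, had log2 intensities of 10.51 in Wip1-Tg secondary and 10.45 and 10.07 in wt secondary spheres, against 8.41 and 8.80 in Wip1-Tg primary and 8.98 in wt primary spheres, and rose 3.01-fold (limma adjusted p = 0.00332). Acsl3, a long-chain acyl-CoA synthetase, rose 2.09-fold and Thrsp, a lipogenic regulator, 1.82-fold. Me1, the malic enzyme that makes NADPH for lipid synthesis, was not above background on any secondary array (4.84 to 5.12) and was at 9.15 to 9.99 on the primary arrays. Me1 thus passed the filter through the primary arrays alone. The primary mean was at least 19.7-fold above the secondary level, a bound that carries no sampling error. The limma adjusted p of 0.000148 belongs to the fitted difference of -4.78 log2. The lipoprotein receptor genes Vldlr and Lrp8 fell 2.26-fold and 1.81-fold. The remaining rises were Hacd2 at 0.64, Hacd3 at 0.61, Acss2, which makes acetyl-CoA from acetate, at 0.55, Tecr at 0.45 and Elovl5 at 0.42 log2, named after their values were seen. Slc25a1, the mitochondrial citrate carrier, and Nceh1, a cholesterol ester hydrolase, completed the falls at -0.45 and -0.72.

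The second comparison asked how the Wip1 transgene changed the lipid genes, with passage in the model and 3 arrays per genotype. With limma, 0 of the 32 genes passed (adjusted p of 0.434 to 0.991), as did 0% of all features. At an unadjusted p under 0.05 there were 3, Cyp46a1, Insig2 and Lss, among 10.1% of all features. With trend and robust variance 0 of the 32 passed, among 1 of all features. Apart from Cyp46a1, which was not above background on any Wip1-Tg array, the Wip1-Tg minus wt differences ran from -0.45 to 0.51. The median over the 32 genes was 0.15, against 0.01 over all features. Where single genes are said below to have genotypes that do not overlap, the share of all features is not given beside them.

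**Figure D4:**
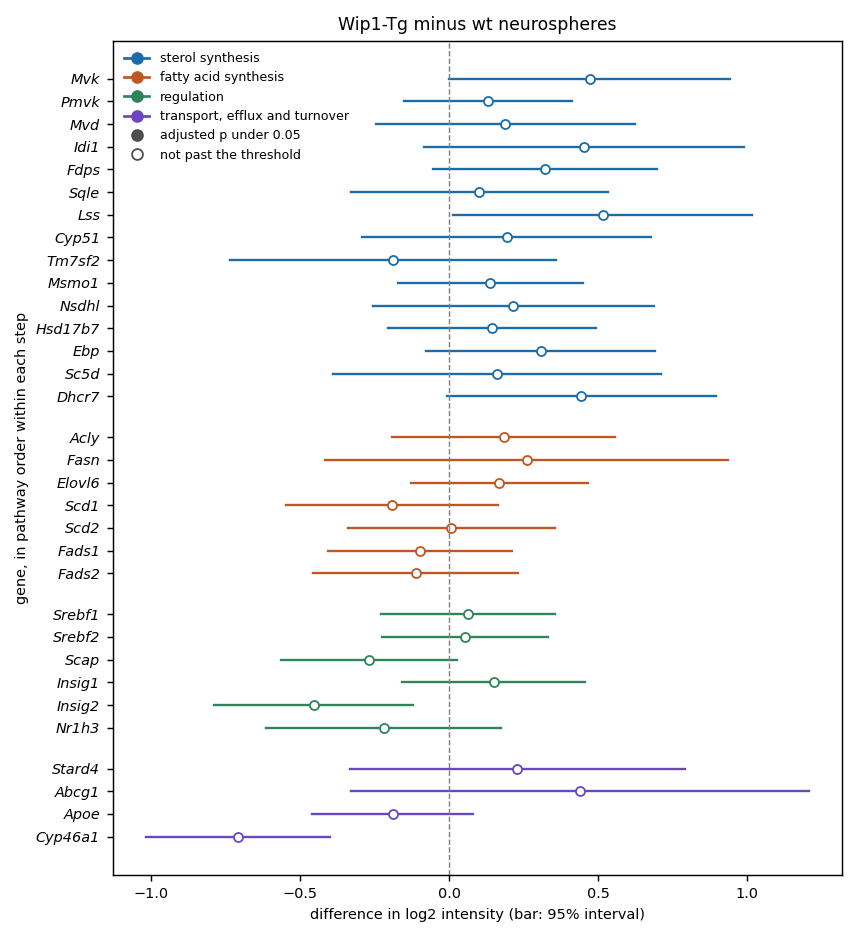
Wip1-Tg minus wt difference in log2 intensity for the 32 kept genes, with points for the fitted difference and bars for its 95% interval (3 arrays per genotype). All points are open, since 0 genes passed; the Cyp46a1 point is a fitted value against background; 14 of the 15 sterol synthesis genes lie above 0, against 6 of 15 under median scaling.

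In sterol synthesis 14 of 15 differences were above 0, against 51.7% of all features, with a median of 0.19. Under median scaling 6 of 15 were above 0, and 14 of 15 were above the median of all features, which was then -0.19. Lss was at 9.82 in Wip1-Tg secondary and 9.59 and 9.68 in Wip1-Tg primary spheres, against 9.49 and 8.79 in wt secondary and 9.29 in wt primary spheres. Its genotypes did not overlap, and the difference was 0.51 (SE 0.209, 95% interval 0.01 to 1.02, limma adjusted p = 0.494). Mvk was at 9.01 in Wip1-Tg secondary and 8.11 and 8.21 in Wip1-Tg primary spheres, against 8.33 and 8.01 in wt secondary and 8.06 in wt primary spheres (0.47, SE 0.197, limma adjusted p = 0.496). The Wip1-Tg secondary array alone stood out for Mvk, where the difference was 0.84 within secondary and 0.10 within primary spheres. Fdps, whose genotypes did not overlap either on its brightest probe, differed by 0.32 (limma adjusted p = 0.539). The second kept probe of Fdps gave 0.06, and there the genotypes overlapped. Dhcr7 differed by 0.44 and Idi1 by 0.45, and Tm7sf2, at -0.19, was the gene below 0.

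The replicates of the wt secondary group differed in the same genes. On wt secondary 1 all 15 sterol genes stood above their values on the other wt secondary array, against 50.4% of all features, and the median gap was 0.39. This gap between 2 replicates was wider than the median genotype difference of 0.19. Lss was at 9.49 and 8.79 on these arrays, Sqle at 12.29 and 11.69, Cyp51 at 11.21 and 10.57 and Idi1 at 6.94 and 6.48. The Wip1-Tg secondary array was above both of them for 10 of 15 genes, against 39.3% of all features, and both Wip1-Tg primary arrays were above the wt primary array for 10 of 15, against 38%. After centring each gene on its mean over the 6 arrays, the mean of the 15 genes was 0.36 in Wip1-Tg secondary spheres and 0.21 and -0.18 in wt secondary spheres. In primary spheres it was -0.12 and -0.04 in Wip1-Tg and -0.22 in wt. The 4 measured proliferation markers likewise stood above on wt secondary 1 (median gap 0.46), and their Wip1-Tg minus wt differences were all above 0 (median 0.69), and their part in the sterol values was not tested. Of 9 oligodendrocyte markers 7 were measured, and 6 of these had genotype differences below 0 (median -0.53), with summed levels of 3772 to 4531 on Wip1-Tg and 5399 to 6195 on wt arrays. The myelin genes Mbp (-1.76), Mag (-1.71) and Mal (-0.60) had an unadjusted p of 0.00482 to 0.00705 by limma. Of all features 10.1% had an unadjusted p under 0.05. None of these myelin genes passed (limma adjusted p = 0.434 each). Cnp, Mobp, Sox10 and Olig2 did not reach an unadjusted p under 0.05. The part of the oligodendrocyte markers in the sterol values was not tested either.

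**Figure D5:**
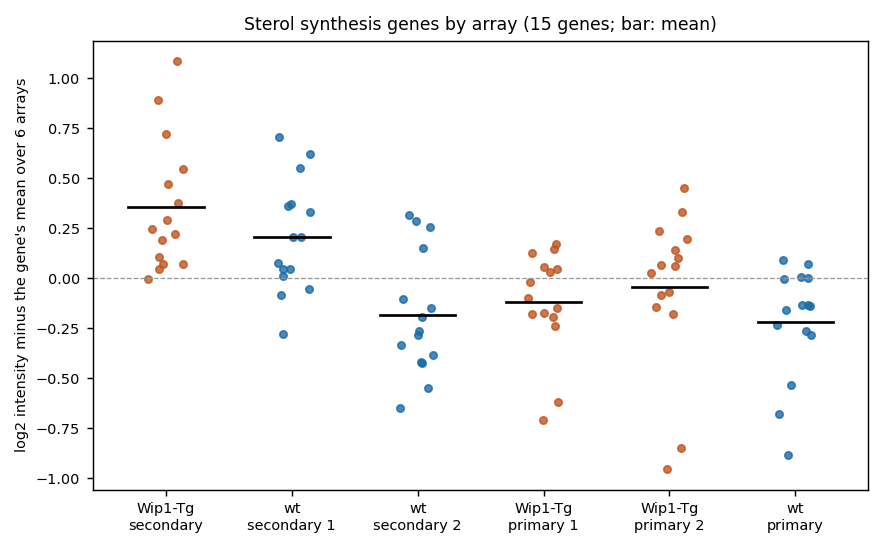
Log2 intensity of the 15 sterol synthesis genes on each array after subtracting each gene's mean over the 6 arrays, with 1 point per gene and a bar for the mean. The mean is 0.36 on the Wip1-Tg secondary array, and the 2 wt secondary arrays lie apart at 0.21 and -0.18.

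Without wt secondary 2 the median sterol difference was 0.10, and without wt secondary 1 it was 0.31. It was 0.16 within primary and 0.25 within secondary spheres.

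Fatty acid genes had 4 of 7 genotype differences above 0 and a median of 0.01. Elovl6 was at 10.52 in Wip1-Tg secondary and 10.51 and 10.57 in Wip1-Tg primary spheres, against 10.40 and 10.17 in wt secondary and 10.44 in wt primary spheres (0.17, SE 0.124, limma adjusted p = 0.663). The genotypes did not overlap, by a narrow margin. For Scd1 the difference was -0.19 (SE 0.149, limma adjusted p = 0.682) and for Scd2 0.01 (95% interval -0.34 to 0.35, limma adjusted p = 0.991). Fads1 and Fads2 stood at -0.10 and -0.11, with -0.25 and -0.33 within secondary spheres and 0.06 and 0.11 within primary spheres. These differences between passages did not pass as an interaction (limma adjusted p = 0.666 for Fads1 and 0.582 for Fads2).

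Of the regulators, 3 of 6 had a positive genotype difference and the median was -0.08. Insig2 was lowest in Wip1-Tg spheres within each passage: it stood at 8.38 in Wip1-Tg secondary against 8.85 and 9.12 in wt secondary spheres, and at 9.43 and 9.45 in Wip1-Tg primary against 9.74 in wt primary spheres. The difference was -0.45 (SE 0.139, 95% interval -0.79 to -0.12, unadjusted p = 0.0148 and adjusted p = 0.448 by limma), and the second probe gave -0.59. Scap differed by -0.27 (SE 0.123, limma adjusted p = 0.518) and Nr1h3 by -0.22 (SE 0.165, limma adjusted p = 0.666). Srebf1 at 0.06 and Srebf2 at 0.05 lay near 0, with intervals of -0.23 to 0.36 and -0.23 to 0.33. Insig1 had probes of both signs, 0.15 for the brightest and -0.28 and -0.26 for the others, so no direction is given.

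Cyp46a1 had the smallest genotype p of the 32 genes. It was above background on all 3 wt arrays and on 0 Wip1-Tg arrays, with log2 intensities of 5.0 in Wip1-Tg secondary and 5.04 and 4.97 in Wip1-Tg primary spheres, against 5.93 and 5.78 in wt secondary and 5.57 in wt primary spheres. The genotypes did not overlap. The wt mean was at least 1.38-fold above the Wip1-Tg level, a bound that carries no sampling error. The fitted difference was -0.71 (SE 0.129, unadjusted p = 0.0011 and adjusted p = 0.434 by limma) and did not pass. The filter admitted the probe through the wt arrays where it was higher. Neither these values nor the lack of overlap is therefore independent support for a difference. Of the 7 neuronal markers listed, Tubb3, Syt1 and Snap25 had no kept probe. The summed level of the 4 others was 4077 to 4526 on Wip1-Tg and 3715 to 4402 on wt arrays, most of it from Map2, which differed by 0.09. Rbfox3, a marker of mature neurons, was at 5.38 in Wip1-Tg secondary and 4.96 and 5.70 in Wip1-Tg primary spheres, against 5.77 and 5.94 in wt secondary and 6.18 in wt primary spheres, so its genotypes did not overlap (-0.67, unadjusted p = 0.0223 and adjusted p = 0.466 by limma). Stmn2 differed by -0.75 and Dcx by 0.04, and the part of neuronal cells in the Cyp46a1 values was not tested. Apoe differed by -0.19 (SE 0.113, limma adjusted p = 0.599), Stard4 by 0.23 and Abcg1 by 0.44 (SE 0.321, limma adjusted p = 0.66).

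The third comparison asked whether the genotype difference changed with passage. With limma, 0 of the 32 interactions passed (lowest adjusted p = 0.511) and 0% of all features did, while 2 of the 32, Abcg1 and Mvk, had an unadjusted p under 0.05, against 9.38% of all features. The Abcg1 genotype difference was 1.06 within secondary and -0.19 within primary spheres, resting on the lone Wip1-Tg secondary array at 6.84. Stard4 ran the other way, at -0.20 within secondary and 0.66 within primary spheres (interaction -0.85, limma adjusted p = 0.544). Each of these rests on 1 lone array per passage, which the model assumes to vary like the others.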

How the data were processed

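RNA was measured on 6 arrays. The deposited table holds, per the file headers, non-normalized intensities of 45281 probes, each with its detection p-value. The deposited value table holds intensities that the authors quantile normalized, as the values show. The scanner software is not given in the sources used here, and the number of arrays limits precision. Background was corrected and values normalized with neqc (limma 3.58.1, R 4.3.3, offset 16, log2). The filter kept 18274 probes whose detection p was below 0.05 on 3 or more arrays, with names from the platform annotation updated through Entrez IDs. The brightest kept probe stood for a gene; 8 members had several. limma with eBayes fitted genotype and passage (3 residual degrees of freedom), or both with their interaction (2), over all features, with Benjamini-Hochberg adjustment; the fit was checked on simulated data. Full values are given for members past a threshold, the 2 per step with the smallest genotype p, paralog pairs and X-linked members. Members, lists and motifs were chosen with earlier results of these data known. Alternatives changed the background correction, scaling, offset, filter, probe rule, variance model, covariates and arrays.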

Additional observations from a re-analysis of the deposited data

How the results depend on the processing

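The count of 10 members called for passage was 7 to 13 over the settings that kept all 6 arrays. Over these settings 10.2 to 32.8% of all features were called. It was 5 to 9 as single arrays were left out, the lowest without Wip1-Tg secondary, and 4 on the arrays with Xist signal. Sc5d, Dhcr7 and Fads2 were called in 15 of 16 settings, Insig2 in 14, Scd1 and Srebf1 in 13, Nsdhl in 8, Fads1 in 7 and Fasn in 8 of 14. Genotype gave 0 calls among the members in each setting run with limma, and interaction in each setting where it could be fitted. No paired analysis was possible because replicate numbers occur only in the Wip1-Tg primary and wt secondary groups, which differ in both factors. Leaving out wt primary or Wip1-Tg secondary leaves no interaction to fit. Sign changes were all of differences that did not pass. Median scaling moved the median of all features to -0.24 for passage and -0.19 for genotype, and the values below moved down with it. Under it, passage differences were -0.30 for Lss and -0.050 for Insig1, and genotype differences were -0.0037 for Nsdhl, -0.041 for Sc5d, -0.15 for Srebf1, -0.054 for Elovl6, -0.074 for Insig1, -0.22 for Scd2 and -0.17 for Srebf2. The causes of the following changes were not tested. With the mean of probes the Insig1 genotype difference was -0.13. With genotype left out the Lss passage difference was -0.15. With passage left out, genotype differences were -0.013 for Nsdhl, -0.33 for Sc5d, -0.084 for Fasn, -0.15 for Srebf1 and -0.15 for Scd2. On the arrays with Xist signal they were -0.13 for Nsdhl and -0.018 for Srebf2. As single arrays were left out, passage differences ranged from -0.15 to 0.19 for Lss and from -0.0099 to 0.29 for Cyp46a1. Genotype differences ranged from -0.25 to 0.062 for Fads1, -0.33 to 0.11 for Fads2, -0.23 to 0.75 for Fasn, -0.13 to 0.56 for Nsdhl, -0.25 to 0.57 for Sc5d, -0.16 to 0.17 for Scd2, -0.024 to 0.15 for Srebf1 and -0.018 to 0.12 for Srebf2.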
